A study of Homo sapiens with 36 samples.

Results

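The transcription factor p53 switches on a set of genes that stop the cell cycle, remove damaged cells or adjust metabolism, and 9 of its best known target genes are described here: CDKN1A, MDM2, BAX, BBC3, FAS, EDA2R, ZMAT3, SESN1 and GDF15. They were found by gene symbol among 62710 gene rows, and each symbol matched 1 row. RNA had been sequenced from H9, a human embryonic stem cell line, while it was turned into neurons by doxycycline-driven expression of NGN2, a proneural transcription factor. The 3 genotypes were WT, HET (RAI1 disrupted on 1 allele) and KO (RAI1 disrupted on both alleles), where RAI1 encodes a chromatin regulator. Cultures were harvested uninduced, at day 0, or after 3 or 7 days of induction. The 36 libraries form 9 groups of 4 replicates, which the labels call biological. All groups, WT included, derive from H9 cells that carry the inducible NGN2. The number of clones behind each genotype is not given in the sources used here, so p-values measure the spread between these cultures and cannot tell genotype from clone.

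In unstressed cells p53 is kept scarce by MDM2, a ubiquitin ligase that p53 itself induces, so that the pair forms a negative feedback loop. When DNA damage or another stress stabilises p53, it binds paired decamer sites near its targets. The products then arrest the cycle (CDKN1A, which encodes p21) or open the mitochondrial route to apoptosis (BAX and BBC3). Others act as receptors at the cell surface (FAS, a death receptor, and EDA2R). Human pluripotent stem cells are known for a low threshold to p53-driven apoptosis, and maturing neurons for leaving the cell cycle for good.

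The deposited totals ran from 23.95 to 56.68 M counts per library. RAI1, the targeted gene, was not lower in the mutants. Its mean CPM (counts per 1 M counted reads, scaled by TMM factors) at day 0 was 33.5 for WT, 38.1 for HET and 37.1 for KO. At day 7 the means were 52.3, 73.3 and 84.6. There KO was higher than WT by edgeR (log2 difference 0.69, adjusted p = 0.0296), with overlapping ranges. The level of RAI1 therefore gives no check of the genotype labels. Small structural RNAs took 4.02% to 6.45% of a library at day 0 and 2.84% to 27.47% at day 7. Summed pluripotency markers were 2001 to 4511 CPM at day 0 and at most 307.2 CPM at day 7. Summed neuronal markers were 265.5 to 734.6 CPM at day 0 and at least 5859 CPM at day 7, while the summed microglia markers never passed 2.914 CPM. In bulk samples, fewer cells of a type and less RNA per cell cannot be told apart.

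Among the members, EDA2R separated the genotypes on every day: it was all but silent in WT and present in each HET and KO library. In WT cells, CDKN1A, GDF15 and BBC3 had the largest rises in counts between day 0 and day 3, while MDM2 fell on both steps. This BBC3 rise and the second fall of MDM2 were not called on log2(TPM + 1). The other 8 members did not pass the test between mutant and WT at day 0 or day 3. At day 7 CDKN1A and GDF15 were lower in KO. A change was called at an adjusted p under 0.05 in edgeR's quasi-likelihood test with Benjamini-Hochberg adjustment over all genes tested.

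**Figure D1:**
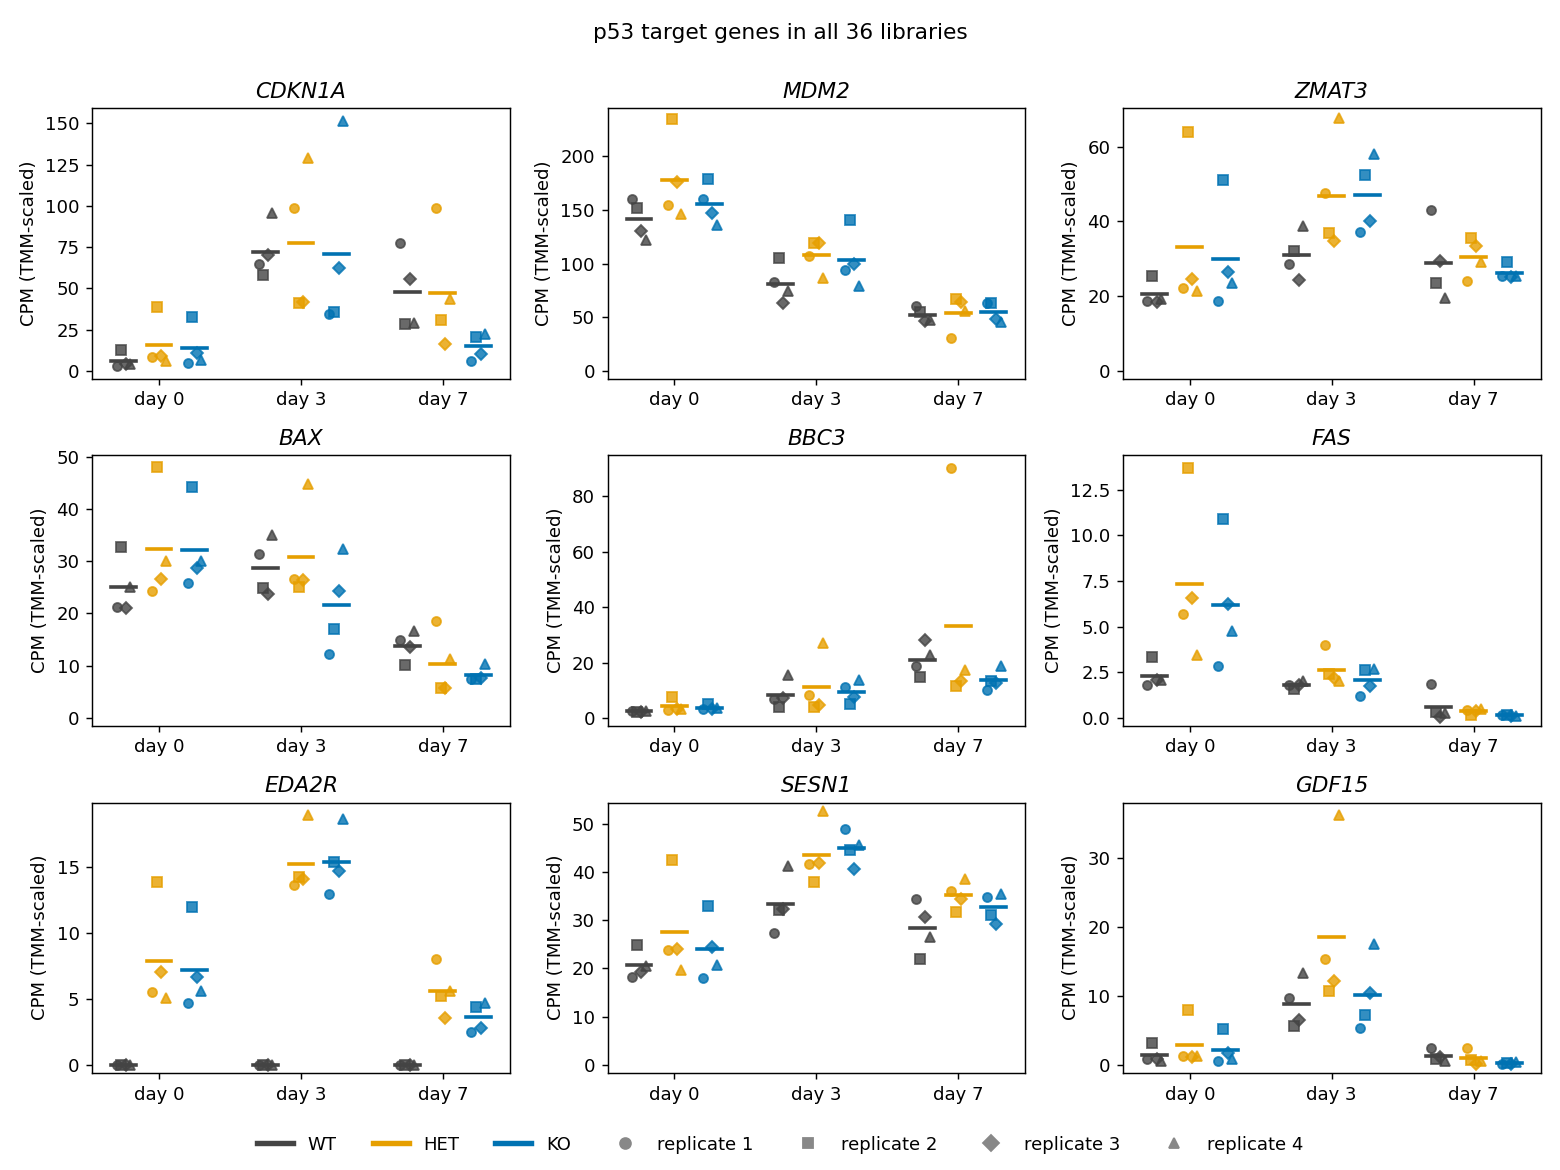
CPM (TMM-scaled) of the 9 p53 targets in all 36 libraries, by day and genotype; the marker shape gives the replicate number and the bar the mean of 4. EDA2R lies at 0 in WT on all 3 days, and replicate 2 tops most panels at day 0.

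EDA2R (ENSG00000131080, chrX:66595637-66639298, minus strand, GRCh38, GENCODE 29) encodes a receptor of the tumour necrosis factor receptor family that binds ectodysplasin A2. No other annotated gene overlaps it. Its counts in WT were 0, 1, 0 and 0 at day 0, the same at day 3, and 0 in all 4 libraries at day 7. In HET they were 206, 412, 184 and 191 at day 0, then 554, 572, 782 and 564 at day 3, and 310, 192, 147 and 140 at day 7. The KO counts were 173, 356, 203 and 184 before induction, 541, 710, 526 and 754 on day 3 and 97, 177, 102 and 150 on day 7. The lowest mutant library therefore held 97 counts against at most 1 in WT, and the groups did not overlap on any day.

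Summed over the 4 libraries and divided by their totals, EDA2R in KO was 1091 times WT at day 0 (exact 95% interval 195 to 43135) and 2686 times at day 3 (482 to 106132). In HET the ratios were 1183 (212 to 46774) and 2664 (478 to 105260). These rest on 1 WT count each and the intervals cover counting error only. At day 7, where WT had 0 counts, EDA2R was at least 45.3-fold higher in KO and at least 72.2-fold higher in HET, taking 3 counts per WT library as the floor. All 6 differences were called (edgeR adjusted p between 1.01e-08 and 1.07e-05), and limma on log2(TPM + 1) kept each call except KO at day 7 (adjusted p = 0.0639).

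Within the mutants, EDA2R averaged highest at day 3. In KO its mean CPM on days 0, 3 and 7 was 7.22 ± 3.27, 15.4 ± 2.37 and 3.60 ± 1.12 (SD, n = 4 each). In HET it was 7.87 ± 4.07, 15.2 ± 2.49 and 5.61 ± 1.83. In CPM the day 3 and day 7 ranges did not overlap in either genotype. In TPM HET averaged 2.01 ± 1.27, 2.27 ± 0.822 and 1.03 ± 0.621 on days 0, 3 and 7, with overlap of days 3 and 7. In KO the TPM means were 1.68 ± 0.705, 2.84 ± 1.56 and 0.475 ± 0.158, without overlap of days 3 and 7. Days were not tested against each other within a mutant. HET and KO differed by no more than 0.63 on the log2 scale on any day, with overlapping ranges (edgeR adjusted p from 0.423 to 0.998).

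The bases just upstream of the outermost annotated start of EDA2R are shown because this is the member whose RNA is missing from 1 genotype. They lie at chrX:66639299-66639519 (minus strand, GRCh38.p14, from RefSeq) and are written 5′ to 3′ with each CG pair in capitals.
EDA2R upstream: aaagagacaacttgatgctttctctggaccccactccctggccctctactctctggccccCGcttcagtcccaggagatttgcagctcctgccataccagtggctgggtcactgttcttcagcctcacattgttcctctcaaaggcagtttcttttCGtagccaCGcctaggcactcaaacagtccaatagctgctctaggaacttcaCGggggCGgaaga
This stretch of 221 bases holds 5 CG pairs. The RefSeq windows (250 bases before to 50 after) of the 2 annotated starts of EDA2R hold 8 and 15 CG pairs, against 39 in the window of MDM2 with the most, and 39.3% and 51.1% of all such windows hold fewer. Methylation was not measured.

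A neighbouring gene of EDA2R was expressed in WT as well. HEPH, which encodes a copper-dependent iron oxidase, averaged 52.4, 52.5 and 60.7 CPM at day 0 (WT, HET, KO). It was not called between either mutant and WT at day 0. At day 3 it averaged 36.5, 15.1 and 15.6 CPM and was called lower in KO (log2 difference -1.24) but not in HET (-1.25). Across the genome, 18 genes were at or under 3 counts in all 12 WT libraries and above 3 in all 24 mutant libraries, and 7 of them, EDA2R included, lie on X. The reverse pattern was held by 5 genes.

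Arrest and feedback come first in the WT time course. CDKN1A (ENSG00000124762, chr6:36676460-36687339, plus strand) encodes p21, the inhibitor of cyclin-dependent kinases. Its CPM in WT was 2.83, 12.7, 4.31 and 4.39 at day 0 and 64.4, 58.3, 70.2 and 95.7 at day 3. Every day 3 library lay above every day 0 library, with replicate 2 the highest at day 0. The log2 fold change was 3.56 ± 0.45 (SE; edgeR adjusted p = 9.97e-06). By day 7 its level was 77.5, 28.3, 55.7 and 29.3 CPM, which overlapped day 3 and did not pass the test (adjusted p = 0.243). The same step was called lower on log2(TPM + 1) (difference -0.93, limma adjusted p = 0.0225). The antisense gene DINOL, with a median of 10 counts, overlaps an exon of CDKN1A, and without a known strand setting their reads cannot be told apart.

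MDM2 (ENSG00000135679, chr12:68808176-68850686, plus strand) went the other way. Its CPM in WT was 161, 152, 131 and 122 at day 0, then 83.0, 105, 63.0 and 74.2 at day 3, and 60.2, 54.4, 46.2 and 47.4 at day 7. Neither pair of successive days overlapped. MDM2 fell by 0.81 on the log2 scale from day 0 to day 3 (SE 0.16; edgeR adjusted p = 0.00055) and by 0.64 from day 3 to day 7 (SE 0.16; adjusted p = 0.00431). CDKN1A and MDM2, both direct p53 targets, thus moved in opposite directions between day 0 and day 3. From day 3 to day 7 MDM2 differed by -0.72 on log2(TPM + 1) and did not pass (limma adjusted p = 0.0648). AC025423.2, a gene with a median of 101 counts on the same strand, overlaps an exon of MDM2.

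Among the same RefSeq windows (GRCh38.p14), a p53 response element was found for MDM2 and FAS. The search was for a pair of adjoining p53 decamers, with the core C and G of each decamer intact and at most 2 mismatches over 20 bases; the consensus is its own reverse complement, so 1 scan covers both strands. All 9 members matched the table, with 18 windows, and 3 windows of 2 members held an element. Of all 35116 windows, 0.285% did. The MDM2 element lies at chr12:68808923-68808942 and the FAS element at chr10:88991309-88991328, both read on the plus strand, with 10 bases of flank and the element in capitals.
MDM2 element: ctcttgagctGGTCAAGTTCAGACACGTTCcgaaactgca
FAS element: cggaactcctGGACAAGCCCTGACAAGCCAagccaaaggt
The MDM2 element ends 75 bases before 1 annotated internal start and 82 before another, and the FAS element ends 103 bases before a start. Both carry 2 mismatches to the consensus. A match is a description of these letters, and sites outside the windows were not searched.

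The apoptosis genes split in time. BBC3 (ENSG00000105327, chr19:47220822-47232766, minus strand) encodes PUMA, which frees BAX from its inhibitors. Its CPM in WT was 2.50, 2.14, 2.24 and 2.55 at day 0, then 6.77, 3.78, 7.29 and 15.6 at day 3, and 18.6, 14.8, 28.1 and 22.7 at day 7. All day 3 libraries exceeded all day 0 libraries, and only replicate 4 of day 3 reached into the day 7 range. BBC3 rose by 1.82 ± 0.34 on the log2 scale and then by 1.34 ± 0.33 (SE; edgeR adjusted p = 0.000373 and 0.00388). In TPM, which is per transcript length, the first step was not called: BBC3 was 1.33 to 1.99 TPM at day 0 and 1.45 to 3.11 at day 3, with overlap, and differed by 0.24 on log2(TPM + 1) (limma adjusted p = 0.319). BAX (ENSG00000087088, chr19:48954815-48961798, plus strand), the pore-forming protein itself, held 21.2, 32.6, 21.1 and 24.99 CPM at day 0 and 31.4, 24.8, 23.8 and 35.01 at day 3. Those ranges overlapped (log2 difference 0.20, adjusted p = 0.392). BAX then fell to 14.9, 10.1, 13.5 and 16.6 CPM at day 7, below every day 3 library (log2 difference -1.06 ± 0.20, SE; adjusted p = 0.000461).

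FAS (ENSG00000026103, chr10:88990582-89015785, plus strand) encodes the death receptor for FAS ligand. Its CPM in WT was 1.79, 3.31, 2.07 and 2.10 at day 0, then 1.82, 1.57, 1.82 and 2.00 at day 3, and 1.85, 0.308, 0.0592 and 0.277 at day 7. At day 7 replicate 1 stayed in the day 3 range and the other 3 replicates lay below it. The day 7 change was called at the edge (log2 difference -1.56 ± 0.61, SE; edgeR adjusted p = 0.0498). Without WT day 7 replicate 1 it was -3.00 (adjusted p = 3.17e-05), and leaving out any 1 of the other 7 libraries ended the call (0.0695 to 0.131). The gene ACTA2 overlaps an exon of FAS on the opposite strand with a median of 166 counts, and since the strand setting of the counting is not given, FAS values are uncertain to that extent.

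The remaining members have other roles. GDF15 (ENSG00000130513, chr19:18374731-18389176, plus strand) encodes a secreted stress cytokine. In WT it held 0.879, 3.17, 0.848 and 0.601 CPM at day 0, then 9.68, 5.71, 6.48 and 13.4 at day 3, and 2.42, 0.831, 1.10 and 0.623 at day 7. The day 3 libraries stood above those of both other days without overlap (log2 changes 2.66 ± 0.53 and -2.84 ± 0.54, SE; edgeR adjusted p = 0.000581 and 0.000566). SESN1 (ENSG00000080546, chr6:108986437-109094819, minus strand), which encodes an inhibitor of mTORC1 signalling, rose from 18.2 to 24.8 CPM at day 0 to 27.4 to 41.3 at day 3 (0.68 ± 0.16, adjusted p = 0.00257). ZMAT3 (ENSG00000172667, chr3:179017223-179072279, minus strand), which encodes an RNA-binding protein, rose from 18.5 to 25.3 CPM to 24.2 to 38.9 CPM (0.59 ± 0.22, adjusted p = 0.0307), with overlap. The ZMAT3 call ended in DESeq2 (0.0585) and without any 1 of 5 libraries, WT day 0 replicate 1, 3 or 4 or WT day 3 replicate 2 or 4 (up to 0.093). On log2(TPM + 1) both differences turned negative, SESN1 to -0.15 and ZMAT3 to -0.22. From day 3 to day 7 neither passed the edgeR test (adjusted p = 0.273 and 0.735). SESN1 was called lower for that step on log2(TPM + 1) (difference -0.63, limma adjusted p = 0.0221).

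From day 0 to day 3, 6 of the 8 members tested were called in WT, 5 higher and 1 lower, where 60.0% of all 22268 genes tested were called (31.2% higher and 28.7% lower). From day 3 to day 7, 5 of 8 were called, 1 higher and 4 lower, beside 46.2% of all genes (23.3% higher and 22.9% lower). Ranges did not overlap for 5 of these 8 members on the first step and 3 on the second. They did not overlap for 58.0% and 37.5% of all genes, so the members lay near those shares. EDA2R was not tested on either step, because its WT counts did not pass the filter on low values. The direction from day 0 to day 3 depended on the scale: on log2(TPM + 1), where the median of all genes moved by -0.38, 2 members were called higher and 3 lower, while 14.7% rather than 52.0% of all called genes were higher. On that scale CDKN1A and GDF15 were called higher and MDM2, BAX and FAS lower. From day 3 to day 7 it called 1 member higher and 5 lower, with 26.7% rather than 50.4% of all called genes higher.

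At day 0, before induction, 1 of 9 members was called between KO and WT and 1 of 9 between HET and WT, EDA2R in both, where 2.08% and 1.63% of all 20437 genes were called. Both comparisons share the WT libraries. The other 8 members all had higher means in the mutants and none passed. FAS was the nearest: 1.79 to 3.31 CPM in WT, against 5.70, 13.7, 6.59 and 3.42 in HET and 2.83, 10.9, 6.25 and 4.74 in KO. HET and WT did not overlap, while the lowest KO library lay inside the WT range. The log2 differences of FAS were 1.69 ± 0.46 for HET and 1.44 ± 0.46 for KO (SE; edgeR adjusted p = 0.119 and 0.16).

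BBC3 at day 0 was 2.14 to 2.55 CPM in WT, 2.85 to 7.62 in HET and 3.06 to 4.87 in KO, with no overlap against WT (log2 differences 0.86 and 0.67, edgeR adjusted p = 0.25 and 0.376). Ranges did not overlap for 3 of 9 members in HET (BBC3, FAS and EDA2R) and 2 of 9 in KO (BBC3 and EDA2R), beside 7.83% and 9.29% of all genes. The median log2 difference of the 8 members other than EDA2R was 0.79 in HET and 0.61 in KO, against 0.01 for all genes in both. Same-numbered KO and WT libraries deviated together at day 0 (correlations 0.252 to 0.629), so the numbers were taken to pair them. The labels state no shared culture. The block fit also held the HET libraries, whose replicate 1 did not deviate with that of WT (-0.027) or KO (-0.035). With the number as a block, 4 of 9 members were called higher in KO, where 4.70% of all genes were called: EDA2R, FAS (log2 difference 1.34, adjusted p = 0.0131), CDKN1A (1.03, 0.0227) and BAX (0.39, 0.0131).

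**Figure D2:**
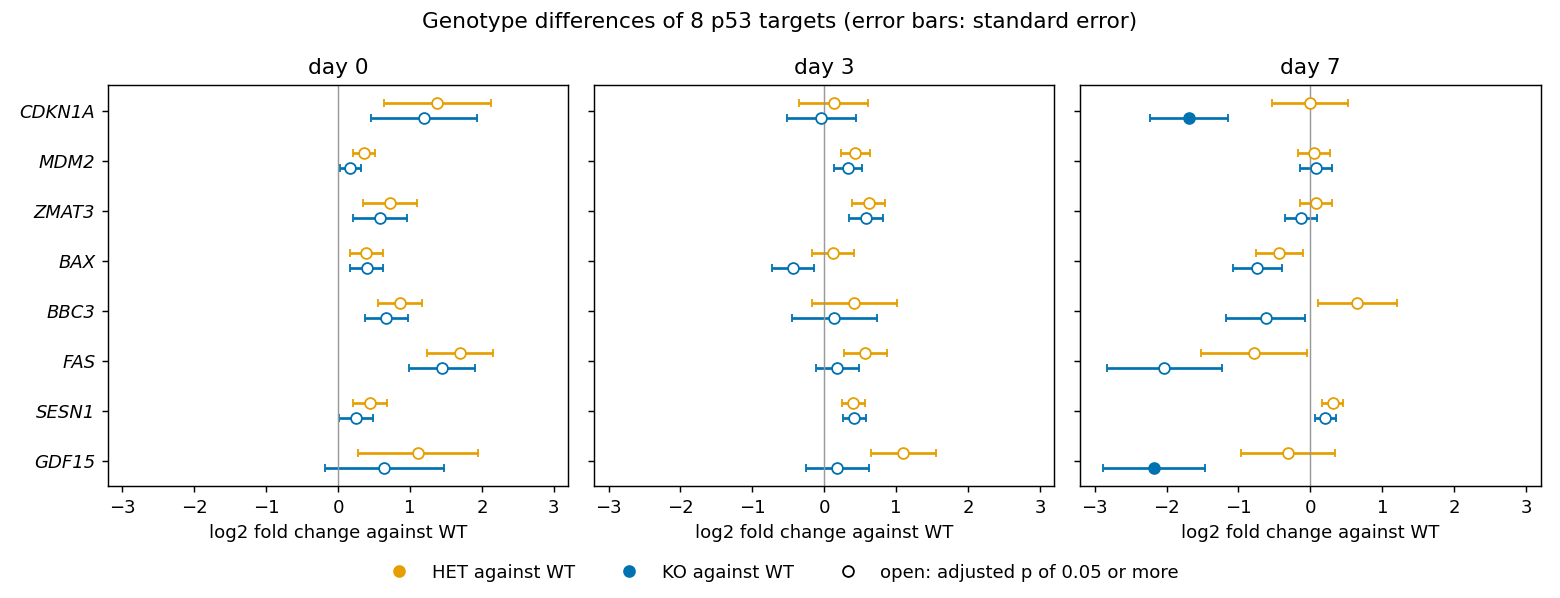
Log2 fold change against WT with its standard error for the 8 members other than EDA2R, by day, from edgeR; filled points have an adjusted p under 0.05. The filled points are CDKN1A and GDF15 in KO at day 7, and all 8 members lie right of 0 in both genotypes at day 0.

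At day 0 the members were high in 1 replicate number. Replicate 2 was the highest of 4 for all 9 members in HET, all 9 in KO and 7 of 9 in WT, whereas it was the highest in 25% of gene and group pairs over all genes tested. CDKN1A in HET was 8.17, 38.6, 9.16 and 6.10 CPM, and in KO 4.53, 32.3, 11.02 and 6.41 CPM. GDF15 in HET was 1.32, 8.03, 1.19 and 1.25 CPM. ZMAT3 in HET was 22.2, 64.1, 24.7 and 21.3 CPM. In each, replicate 2 stood above the other 3 libraries. On log2(CPM + 1), replicate 2 exceeded the mean of the other 3 by a median over members of 0.41 in WT, 1.12 in HET and 0.98 in KO, against medians between -0.02 and 0 over all genes.

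**Figure D3:**
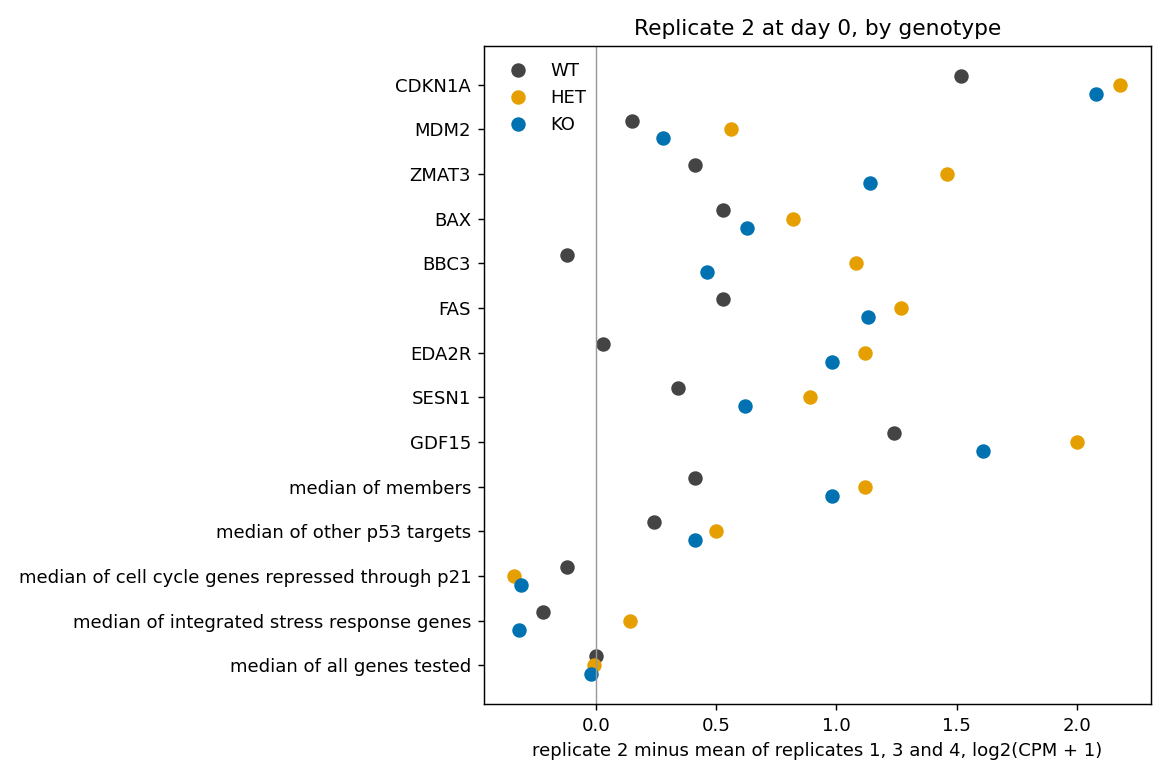
Difference between replicate 2 and the mean of replicates 1, 3 and 4 at day 0, in log2(CPM + 1), for each member and for list medians, by genotype. CDKN1A and GDF15 lie farthest right in all 3 genotypes, and the median of all genes tested lies at 0.

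The other p53 targets listed, 53 genes, showed the same replicate: 27 of 53 had replicate 2 highest in all 3 genotypes, beside 7.64% of all genes tested. Their median excess (WT, HET, KO) was 0.24, 0.50 and 0.41, and that of cell cycle genes repressed through p21 was -0.12, -0.34 and -0.31. Markers of other cell types moved with it. Summed mesenchymal markers, nearly all COL1A1, were 859.9, 1063 and 1075 CPM in replicate 2 (WT, HET, KO), against 102.2 to 315.3 in the other day 0 libraries, and summed pluripotency markers were lowest there in each genotype (2428, 2310 and 2001 CPM). Summed neural progenitor markers (2602, 2871 and 2914 CPM) and neuronal markers (529.9, 608.8 and 734.6 CPM) were also highest in replicate 2 of each genotype. The mesenchymal markers TWIST1 and DCN were at or under 3 counts in all WT and all KO day 0 libraries, respectively. Their part in the result was not tested. Without replicate 2 in any genotype, EDA2R remained the 1 member called in KO and in HET (beside 1.55% and 1.23% of all genes), FAS had log2 differences of 1.41 in HET and 1.23 in KO (edgeR adjusted p = 0.106 and 0.149), and ZMAT3 had 0.29 and 0.30.

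At day 3, again 1 of 9 members, EDA2R, was called in KO and 1 of 9 in HET, where 21.6% and 3.28% of all 21563 genes were called. Ranges of HET and WT did not overlap for 2 of 9 members (EDA2R and FAS), beside 8.72% of all genes. CDKN1A did not separate the genotypes: 64.4, 58.3, 70.2 and 95.7 CPM in WT, 98.6, 41.2, 41.8 and 129 in HET, and 34.3, 35.5, 62.0 and 152 in KO. The WT values sat inside the range of both mutants (log2 differences 0.13 and -0.04, SE 0.48 each). Its HET and KO values ran lower and higher than WT's, and replicate 4 was the highest in each genotype. Replicate 4 was highest for 7 of 9 members in each genotype, where it was the highest in 32.2% of gene and group pairs over all genes tested. COL1A1 was highest there too, at 461.6, 758.3 and 175.9 CPM (WT, HET, KO). So were the summed pluripotency markers (284.6, 421.2 and 419.9 CPM), while the summed neuronal markers were lowest there (1361, 1972 and 5040 CPM), and their part in the members' levels was not tested.

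SESN1 and ZMAT3 came closest to a call at day 3. SESN1 was 27.4, 32.1, 32.3 and 41.3 CPM in WT, 41.7, 37.8, 41.8 and 52.6 in HET and 49.0, 44.5, 40.6 and 45.6 in KO. In each mutant, 1 WT library, replicate 4, reached into the mutant range. The log2 differences were 0.40 and 0.42 (SE 0.16; edgeR adjusted p = 0.248 and 0.0802), and without WT replicate 4 the KO difference was 0.55 (0.0343). ZMAT3 was 28.7, 32.0, 24.2 and 38.9 CPM in WT, 47.6, 37.0, 34.8 and 67.8 in HET and 37.2, 52.5, 40.2 and 58.0 in KO, with overlap. Its log2 differences were 0.62 and 0.58 (SE 0.23; adjusted p = 0.223 and 0.0931).

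Same-numbered libraries also deviated together at day 3 between each mutant and WT (correlations 0.14 to 0.549 for KO and 0.166 to 0.767 for HET). The closest WT library bore the same number for 3 KO and 2 HET libraries. Replicate 1 of KO and HET, both in the fit, did not deviate together (-0.037). With the number as a block, 3 of 9 members were called in KO beside 37.7% of all genes: EDA2R, ZMAT3 (log2 difference 0.59, edgeR adjusted p = 0.00751) and SESN1 (0.43, 0.0226). In HET 3 of 9 were called beside 8.79% of all genes: EDA2R, ZMAT3 (0.59, 0.0255) and GDF15 (0.98, 0.0191). GDF15 was 9.68, 5.71, 6.48 and 13.4 CPM in WT and 15.4, 10.7, 12.2 and 36.2 in HET, so that each HET library exceeded the WT library of its number. Replicate 4 was the highest in both groups.

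At day 7, 3 of 9 members were called in KO, near the 32.6% of all 21714 genes. EDA2R was higher (17.0% of all genes were called higher), and CDKN1A and GDF15 were lower (15.6% were called lower); for these 3 the ranges did not overlap, as for 40.0% of all genes. CDKN1A was 77.5, 28.3, 55.7 and 29.3 CPM in WT and 6.16, 20.5, 10.1 and 22.2 in KO. All KO libraries lay below all WT libraries. The log2 difference was -1.69 ± 0.54 (SE; edgeR adjusted p = 0.0302). It was -1.35 without WT replicate 1 (adjusted p = 0.0936), and leaving out WT replicate 3, KO replicate 1 or KO replicate 3 also ended the call.

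GDF15 at day 7 was 2.42, 0.831, 1.10 and 0.623 CPM in WT and 0.154, 0.273, 0.164 and 0.503 in KO, again without overlap. Its log2 difference was -2.17 ± 0.71 (SE; edgeR adjusted p = 0.0321), and it was -1.63 without WT replicate 1 (0.109). Leaving out WT replicate 1 or 3 or KO replicate 1, 2 or 3 ended this call. The small structural RNA share averaged 20.36% in WT and 12.24% in KO at day 7. With that share as a covariate, CDKN1A and GDF15 had log2 differences of -1.17 and -1.61 (adjusted p = 0.0566 and 0.054), and on log2(TPM + 1) neither passed (0.234 and 0.312). FAS, at 0.1096 to 0.180 CPM in KO and 0.0592 to 1.85 in WT, did not pass (log2 difference -2.03 ± 0.80, adjusted p = 0.0677). DESeq2 did call FAS lower (adjusted p = 0.0438), whereas without replicate 1 in any genotype its edgeR difference was -0.66 (0.475).

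MDM2, SESN1 and ZMAT3 were not lower in KO at day 7 by the test. Their log2 differences were 0.08, 0.21 and -0.13 (SE 0.22, 0.15 and 0.22), with overlapping ranges. BAX, at 7.37 to 10.3 CPM in KO against 10.1 to 16.6 in WT, had a log2 difference of -0.74 ± 0.34 (edgeR adjusted p = 0.107). The median over the 8 members other than EDA2R was -0.68, against -0.04 for all genes.

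In HET at day 7, 1 of 9 members was called, EDA2R, where 14.4% of all genes were called; it was also the 1 member without overlap, beside 14.9% of all genes. HET replicate 1 stood apart. BBC3 was 90.4, 11.6, 13.2 and 17.3 CPM in HET against 14.8 to 28.1 in WT, and MDM2 was 30.3, 66.8, 64.3 and 55.3 CPM in HET. Small structural RNAs took 27.47% of that replicate and 2.84%, 4.17% and 13.35% of the others. Without HET replicate 1, when 34.6% of all genes were called, BAX was called lower (log2 difference -0.91, edgeR adjusted p = 0.0189), with 18.5, 5.72, 5.68 and 11.2 CPM in the 4 HET libraries. Without replicate 1 in any genotype, 4 of 9 members were called, beside 33.5% of all genes: EDA2R, BAX (-0.82), ZMAT3 (0.45) and SESN1 (0.42).

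Between KO and HET no member was called by edgeR without a block or covariate. On the 3 days 0 of 9 members were called, where 0.856%, 4.35% and 1.40% of all genes were called. For an unadjusted p under 0.05, here and below, no share of all genes is given, so those counts are descriptions. On the 3 days, 0, 0 and 3 members reached it. The 3 at day 7 were CDKN1A (log2 difference -1.67 ± 0.54, edgeR adjusted p = 0.18), GDF15 (-1.86 ± 0.71, 0.262) and BBC3 (-1.26 ± 0.55, 0.336). DESeq2 called 0, 0 and 1, the last being CDKN1A at day 7 (adjusted p = 0.0415). Of all genes, DESeq2 called 265 of 40089, 1831 of 40203 and 856 of 41467 on these days. When each library's share of small structural RNAs was a term of the fit, edgeR called these 3 lower in KO at day 7, beside 9.77% of all genes: CDKN1A (-1.81, adjusted p = 0.0177), BBC3 (-1.27, 0.0191) and GDF15 (-2.01, 0.0442). Ranges of all 9 members overlapped between KO and HET on each day, while 3.58%, 10.8% and 8.64% of all genes did not overlap. CDKN1A in HET at day 7 was 98.8, 30.8, 16.5 and 43.5 CPM, so its lowest library lay inside the KO range.

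Whether the genotype difference itself changed between days was tested by interaction over all 36 libraries. From day 0 to day 3, 0 of 9 members were called for KO and 0 of 9 for HET, where 8.55% and 0.271% of all 24764 genes were called. From day 3 to day 7 it was again 0 of 9 in each, beside 18.5% and 4.74%. An unadjusted p under 0.05 was reached by 2 members, FAS and GDF15, both for KO from day 3 to day 7 (log2 terms -2.22 ± 0.82 and -2.38 ± 1.05; edgeR adjusted p = 0.0566 and 0.116). DESeq2 called 1, FAS (adjusted p = 0.036), beside 5188 of 45350 genes, and 0 in the other 3 interactions. The day 7 fall of CDKN1A in KO is therefore not shown to differ from day 3 (-1.67 ± 0.90, adjusted p = 0.215). The terms for EDA2R cannot be read as folds, because its WT counts were at 0 or 1.

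Per transcript length, the members kept a wide order of levels. In WT at day 0 mean TPM was 42.7 ± 8.89 for BAX, 28.1 ± 6.02 for MDM2, 5.41 ± 0.756 for SESN1, 2.51 ± 1.70 for CDKN1A and 2.48 ± 0.509 for ZMAT3 (SD, n = 4 each). BBC3 was at 1.57 ± 0.289, GDF15 at 1.06 ± 0.884, FAS at 0.672 ± 0.170 and EDA2R at 0.0025 ± 0.005 TPM. BAX and MDM2 thus stood well above the other 7. At day 3 in WT CDKN1A, at 14.9 ± 2.67 TPM, followed BAX, at 23.3 ± 9.23, and stood before MDM2, at 10.1 ± 4.29.

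Across the 9 groups in CPM, each member had its own summit. MDM2, BAX and FAS averaged highest in HET at day 0 (178, 32.3 and 7.35 CPM). CDKN1A and GDF15 averaged highest in HET at day 3 (77.7 and 18.6), SESN1, ZMAT3 and EDA2R in KO at day 3 (44.9, 46.9 and 15.4) and BBC3 in HET at day 7 (33.2). The last rests on replicate 1, without which BBC3 averaged 14.1 CPM there, below the 21.1 of WT at day 7. For CDKN1A, ZMAT3, BAX, FAS and EDA2R too, leaving out 1 library of the highest group put another group first. Neighbours in this order mostly overlapped. The gaps without overlap were that between MDM2 at day 0 in WT and day 3 in HET (122 against 119.5 CPM at the nearest libraries), that between BBC3 in KO and WT at day 0, and that between EDA2R in the lowest mutant group and WT.

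The 53 other p53 targets were grouped by role: arrest and feedback (11 genes), apoptosis (13), DNA repair (6), metabolism and redox (7) and signalling or other roles (16). At day 0, 0 of 52 tested were called in KO and 1 in HET. An unadjusted p under 0.05 was held by 10 and 15, and the share of all genes under that rule is not given. The called gene was CCNG1, which encodes a cyclin of the MDM2 feedback loop. It held 294 ± 23.2 CPM in WT and 383 ± 12.6 in HET (SD, n = 4, edgeR adjusted p = 0.038). The list median was 0.21 in KO and 0.31 in HET against 0.01 for all genes. DESeq2 called 2 in KO and 3 in HET, beside 911 and 654 of 40089 genes. The block on replicate numbers called 9 in KO, all higher, beside 4.70% of all genes. The call of CCNG1 ended without any 1 of 6 libraries, replicates 1, 2 and 3 of WT or of HET.

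At day 3, 10 of 51 other targets were called in KO, 5 higher and 5 lower, near the shares of all genes (21.6% called, 12.6% higher and 8.93% lower). In HET 0 were called, where DESeq2 called 3, beside 1327 of 40203 genes, and 10 had an unadjusted p under 0.05 in edgeR. STEAP3, a metalloreductase gene, rose from 1.11 ± 0.287 CPM in WT to 5.37 ± 3.25 in KO, TIGAR, a fructose bisphosphatase gene, from 10.9 ± 2.04 to 25.6 ± 7.99, and CYFIP2, which encodes a part of the WAVE complex, from 46.5 ± 11.4 to 134 ± 39.2. PMAIP1, which encodes the BH3-only protein NOXA, fell from 15.02 to 35.87 CPM in WT to 5.96 to 12.6 in KO, CD82, a tetraspanin gene, from 17.4 ± 3.15 to 6.46 ± 1.75, and E2F7, a repressor of the cell cycle, from 53.7 ± 10.9 to 24.04 ± 10.1. These 6 passed with edgeR adjusted p between 0.00064 and 0.00937. With replicate numbers as a block, 24 were called in KO, 11 higher and 13 lower, and 7 in HET, 6 higher and 1 lower, where that fit called 37.7% and 8.79% of all genes. The list did not move one way: its median was -0.11 in KO, against -0.05 for all genes. Neuronal markers moved at the same time: 8 of 8 were called higher in KO (median log2 difference 2.78) and 4 of 8 in HET (1.68), with summed levels of 1361 to 1647 CPM in WT, 1972 to 4602 in HET and 5040 to 8267 in KO. Their part in the day 3 counts of each list was not tested.

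At day 7, 24 of 49 other targets were called in KO, 6 higher and 18 lower, and 8 in HET, 2 higher and 6 lower. Of all genes, 17.0% were called higher and 15.6% lower in KO, and 8.31% higher and 6.10% lower in HET. The 6 rises in KO and the 2 in HET were thus below the share of all genes, and the 18 and 6 falls above it. Taken in both directions, the 8 calls in HET were near the 14.4% of all genes. The arrest and feedback genes held 5 of the 18, the signalling and other genes 7, the apoptosis genes 3, metabolism and redox 2 and DNA repair 1. BTG2, an antiproliferative gene, fell from 204 ± 17.8 CPM in WT to 35.04 ± 7.81 in KO (edgeR adjusted p = 0.000227) and 91.9 ± 55.9 in HET (0.0316). PMAIP1 fell from 12.03 ± 9.34 to 0.818 ± 0.408 in KO, and RPS27L, a ribosomal protein paralogue gene, from 58.5 ± 35.6 to 13.4 ± 2.01. DDB2, which recognises ultraviolet damage, fell to 7.63 ± 3.90 in HET from 20.6 ± 8.83 in WT. In HET, SUSD6 fell from 52.5 ± 12.3 to 28.2 ± 5.23 CPM.

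The day 7 rises among these targets were led by KITLG, the gene of the ligand of the KIT receptor, with 0.996 ± 0.408 CPM in WT, 39.1 ± 42.3 in HET and 105 ± 57.9 in KO (edgeR adjusted p = 0.00256 and 0.000285). FBXW7, a ubiquitin ligase gene, rose from 39.6 ± 7.50 to 107 ± 15.3 CPM in KO, CYFIP2 from 132 ± 56.1 to 308 ± 44.8, and TIGAR in HET from 7.63 ± 2.43 to 13.8 ± 2.92. The list median was -0.38 in KO and -0.15 in HET, against -0.04 and 0 for all genes. Leaving out HET replicate 1 raised the HET count from 8 to 24, with 34.6% rather than 14.4% of all genes called. Leaving out HET replicate 2 or WT replicate 1 lowered the HET count to 3. The share of all genes called in those fits is not given. Summed neuronal markers were 5859 to 12260 CPM in WT, 12250 to 15660 in HET and 13500 to 17440 in KO at day 7. Of the 8 markers, 5 were called higher in KO and 4 in HET, and their part in the day 7 counts of each list was not tested.

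**Figure D4:**
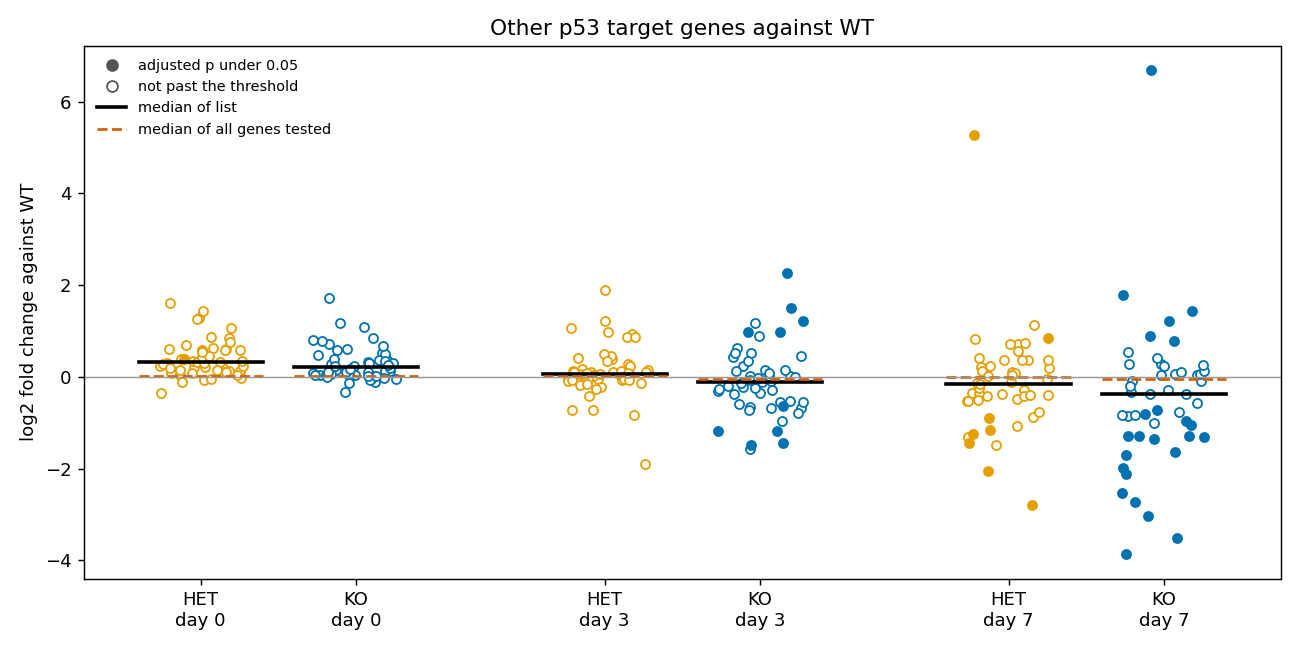
Log2 fold change against WT of the other p53 targets, by genotype and day, from edgeR; each point is a gene, filled where the adjusted p is under 0.05. The list median (black) lies at 0.21 in KO at day 0 and at -0.38 at day 7, beside the median of all genes tested (dashed).

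Of 12 regulators of p53, 3 were called in KO at day 3 and 3 at day 7, 1 higher and 2 lower each time, beside 21.6% and 32.6% of all genes. At day 0, 0 of 12 were called in either mutant by edgeR, and 0 in KO and 1 in HET had an unadjusted p under 0.05. In KO, CHEK2 and CHEK1, the checkpoint kinase genes, fell at day 3 from 34.8 ± 3.58 to 11.8 ± 4.13 CPM and from 33.15 to 54.96 CPM to 12.01 to 23.88. TP53BP1, which encodes a DNA break adaptor, rose from 110 ± 24.5 to 220.2 ± 84.5 CPM (edgeR adjusted p = 0.044). At day 7 in KO TP53BP1 was higher again (191 ± 52.7 in WT, 403 ± 46.9 in KO), and CHEK2 and ATM, the kinase gene of the break response, were lower. In HET 0 of 12 were called on each of the 3 days, with 1, 1 and 3 at an unadjusted p under 0.05.

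Cell cycle genes that p21 is known to hold down were read beside CDKN1A. In KO, 8 of 12 fell at day 3 (median log2 difference -0.93), when CDKN1A did not pass the test. At day 7, when CDKN1A was called lower, 12 of 12 fell (median -2.80). Of all genes, 8.93% and 15.6% were called lower on those days, and 8 of 8 and 5 of 8 neuronal markers were called higher. CDK1, the kinase of mitotic entry, fell from 226 ± 47.7 CPM in WT to 71.7 ± 33.4 in KO at day 3 and from 10.3 ± 12.1 to 0.475 ± 0.0977 at day 7. In HET 0 of 12 were called at day 3 (1 at an unadjusted p under 0.05) and 11 of 12 fell at day 7, beside 6.10% of all genes. The genes CCNB2 and BIRC5 had the largest day 7 falls with CDK1, to 0.273 ± 0.0295 and 0.160 ± 0.118 CPM in KO.

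GDF15 is also a target of the integrated stress response, so 10 genes of that response were read beside it. In KO at day 3, 4 of 10 fell, beside 8.93% of all genes, among them TRIB3 (11.9 ± 2.42 CPM in WT, 5.86 ± 0.879 in KO), CEBPB (10.3 ± 0.901 and 4.44 ± 2.05) and PSAT1 (114 ± 40.3 and 58.3 ± 17.7). In HET TRIB3 alone fell, to 6.23 ± 1.38 CPM. At day 7 in KO 2 of 10 rose, near the 17.0% of all genes: TRIB3 (7.09 ± 3.54 and 15.9 ± 5.34) and ASNS (65.7 ± 17.4 and 118 ± 29.5). ASNS rose in HET as well (123 ± 44.0; edgeR adjusted p = 0.0497).

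The genes with the most similar levels were named by Pearson's r of log2(CPM + 1) over the 36 libraries, among 13965 genes; these libraries share groups and replicate numbers, so r is a description. MDM2 was closest to ASCC3 (0.965), PROSER1 (0.960) and EDRF1 (0.959). BAX was closest to TNFRSF10D (0.935), CMBL (0.924) and AEN (0.923), of which CMBL and AEN are on the p53 target list. ZMAT3 had FLNC (0.733), then PHLDA3 (0.715) and PPM1D (0.713), both of that list. FAS was closest to ACTA2 (0.939), which overlaps it on the other strand, then DRAM1 (0.933), a listed target, and MYOF (0.923).

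CDKN1A was closest to SIL1 (0.919), PXDC1 (0.917) and ARHGAP10 (0.914), and BBC3 to RASSF1 (0.948), EXD3 (0.937) and SMIM29 (0.930). SESN1 had TP53INP1 (0.855), a listed target, IL11 (0.834) and MAN1A1, and GDF15 had FURIN (0.943), RGS16 (0.922) and SERTAD1 (0.922), the last of the list. EDA2R was closest to CRYZ (0.969), a quinone reductase gene on another chromosome that was also at 0 counts in WT, PCDHGC3 (0.955) and LINC02693 (0.932).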

How the data were processed

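Total RNA depleted of ribosomal RNA was sequenced in paired reads of 151 bases, according to the labels' protocols. Per the submitters' processing notes, cutadapt 4.8, STAR 2.7.8a and RSEM 1.3.3 were used with GRCh38; the annotation and strand setting are not given in the sources used here. The values deposited by the authors and used here are expected counts, all of them whole numbers, and TPM. Of the rows, 4 reporters were left out (at most 0.0171% of a library), and 58274 gene identifiers (92.9%) matched GENCODE 29, used for positions. Library totals were 23.95 to 56.68 M counts. Replicates of a group differed by more than counting noise in all 54 pairs (chi-square per degree of freedom at least 12.29).

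Counts were tested in edgeR 4.0.16 (R 4.3.3) with TMM scaling, the default filter on low counts and quasi-likelihood F tests, on the 12 libraries of a day (genotypes), the 12 WT libraries (time) or all 36 (interaction). Printed CPM use TMM factors over all 36 libraries. Alternatives were DESeq2 1.42.0 and its size factors, library size alone, limma 3.58.1 on log2(TPM + 1) and log2(TPM + 0.1), no filter, a replicate block, a small structural RNA covariate and leaving out replicates. Scripts were tested on simulated data.

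Numbers were taken to pair libraries where the deviations from the group means of every same-numbered pair correlated above 0.1. This held between KO and WT on day 0 (0.252 to 0.629) and day 3 (0.14 to 0.549) and between HET and WT on day 3 (0.166 to 0.767). No shared culture behind a number is stated in the labels. Named genes were the 9 members, the targeted gene, the 3 largest called rises and falls among other p53 targets with a mean of at least 5 CPM in the higher group, up to 3 called genes of each other list per day and the 3 genes most like each member. Members and lists were chosen with earlier results of these data known. HEPH and the genes named in the closing section were chosen after their values were seen. Some further genes are not reported here.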

Additional observations from a re-analysis of the deposited data

Results flagged for a closer look

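A library stood far from the other 3 of its group in 13 of the 78 member and group pairs examined. Of these, 7 were replicate 2 at day 0: CDKN1A in WT (12.68 CPM) and HET (38.56), ZMAT3 in WT (25.31) and HET (64.09), GDF15 in WT (3.17) and HET (8.028), and BBC3 in HET (7.625). At day 3, replicate 4 of HET stood high for BAX (44.78 CPM) and EDA2R (18.95 CPM). At day 7 the high libraries were HET replicate 1 for BBC3 (90.41 CPM), WT replicate 1 for FAS (1.847 CPM), KO replicate 2 for ZMAT3 (29.02 CPM) and KO replicate 4 for BAX (10.29 CPM). Each of the 13 was the highest of its 4.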

How the results depend on the processing

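The counts of members called were the same or within 1.5 times under DESeq2 size factors, library size alone and no filter in each comparison. DESeq2 called 2 members in KO and 2 in HET against WT at day 0, 2 in KO at day 3, 1 between KO and HET at day 7 and 1 for the KO interaction from day 3 to day 7. That 1 was FAS, beside 5188 of 45350 genes. For this interaction limma called 1 as well on log2(TPM + 1) and on log2(TPM + 0.1), but it was EDA2R, beside 942 and 1210 of 24764 genes. DESeq2 called 911 of 40089 genes in KO and 654 in HET at day 0. It called 5742 of 40203 in KO at day 3 and 856 of 41467 between KO and HET at day 7. Limma called 0 on log2(TPM + 1) and 1 on log2(TPM + 0.1) for KO at day 7, where edgeR called 3. Of all 21714 genes, these limma fits called 1007 and 1915, and edgeR 7070. With the replicate block, 4 were called in KO and 4 in HET at day 0, 3 in each at day 3 and 1 between KO and HET at day 3. The last was GDF15, lower in KO (log2 difference -0.85, edgeR adjusted p = 0.0306). The numbers did not pair HET with WT at day 0 or KO with HET at day 3, where the block called 3.37% and 12.7% of all genes. At day 7 the block ended the call of CDKN1A in KO (adjusted p = 0.0514), and it changed no member's call in HET at day 7 or in the WT time course. With the small structural RNA share, 1 was called in KO and 2 in HET at day 7 and 3 between KO and HET. That fit called 6240, 1476 and 2121 of all 21714 genes.

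Leaving out single replicates gave 1 to 2 members in KO at day 3, 1 to 3 in KO at day 7 and 1 to 2 in HET at day 7, and 0 to 1 for the KO interaction from day 3 to day 7, 5 to 6 in WT from day 0 to day 3 and 4 to 5 in WT from day 3 to day 7. Other ranges were 1 to 1 or 0 to 0. The 2 in HET at day 7 came without HET replicate 1, beside 34.6% of all genes. For the other fits without 1 library the share of all genes called is not given. Leaving out replicate 1 in all 3 genotypes, chosen after seeing the data, gave 4 in HET at day 7, beside 33.5% of all genes. Leaving out replicate 2 at day 0, chosen likewise, left 1 in each mutant, beside 1.55% in KO and 1.23% in HET. In WT from day 0 to day 3, limma reversed ZMAT3 (-0.22 on log2(TPM + 1) and -0.34 on log2(TPM + 0.1)), BAX (-0.91 and -0.94) and SESN1 (-0.15 and -0.17); the median of all genes moved to -0.38 and -0.76, and the cause was not tested. On log2(TPM + 1), 62% rather than 52.1% of the genes called in KO at day 7 were higher, and 88% rather than 57.7% in HET on log2(TPM + 0.1). Of the other p53 targets, limma on log2(TPM + 1) called 2 in KO at day 3 and 4 in KO at day 7, where edgeR called 10 and 24. That limma fit called 816 of 21563 and 1007 of 21714 genes. Low counts limit FAS and GDF15 at day 7, where KO libraries held 4 to 7 counts of FAS.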

Other observations

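Besides EDA2R, the genes at or under 3 counts in all 12 WT libraries and above 3 in all 24 mutant libraries included RRAGB, KLF8, MAGEH1, POU3F4 and USP51 on X. They also included CRYZ and TYW3 on chromosome 1, PUS7L on chromosome 12, and FAM174A on chromosome 5. The lowest mutant library held 282 counts of MAGEH1, 279 of PUS7L and 209 of CRYZ. On X, 5.12% of the genes tested were called higher in KO at day 0, against 1.66% of all genes tested. In HET at day 0 the values were 6.44% and 1.22%. At day 7 they were 30% and 17% in KO. The mutants also differed from each other on X. Of the X genes tested, 3.51% were called higher in KO than in HET at day 0, against 0.524% of all genes. At day 7 these shares were 2.87% and 0.668%.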
